A study of Mus musculus with 12 samples.

Results

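The baseline transcriptome of mouse bone marrow neutrophils cultured with the vehicle alone was described from the 3 samples labelled PBS as control, out of 12 samples in the series. The members were the count and RPKM columns of PBS replicates 3, 5 and 6, and the other 3 groups of 3 samples, which received a bile acid, were not compared here. In the study, healthy wild-type (WT) neutrophils were exposed to bile acids outside the body, and the PBS samples are the reference for those treatments. Per the methods, the marrow of female C57BL/6 animals, 4 to 6 weeks old, was flushed from femur and tibia. The labels describe Ly6G+ cells sorted with EasySep magnetic beads, whereas the methods name a density separation and a neutrophil enrichment kit. The cells were then kept for 24 h in RPMI medium with fetal bovine serum and PBS. A caption that covers this RNA-Seq beside other assays speaks of 3 independent biological experiments, while the labels and methods do not say which mice or cultures gave these 3 samples. The SD given below measures the spread between the samples, and its technical part is not known.

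Neutrophils are short-lived phagocytes that mature in the marrow. Their antimicrobial proteins are made in waves during maturation and stored in granules, with azurophil proteins made first in promyelocytes, specific (secondary) granule proteins next in myelocytes, gelatinase (tertiary) granule proteins later, and secretory vesicle receptors last. A transcriptome of marrow neutrophils therefore reads out which of these waves are represented, which sensors the cells could present, and which genes of other lineages are low.

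The libraries held 34306467 to 37175737 counts on 29737 genes. A gene counted as detected with at least 3 counts in each of the 3 samples. Levels are given as RPKM, reads counted on a gene relative to the length of its merged exons and to the total of the library, so that genes of different length can be set side by side, and values in a row of 3 refer to replicates 3, 5 and 6 in that order. Errors are the SD with n = 3. In bulk RNA, fewer cells of a type and less RNA per cell cannot be told apart. Reads appear to have been counted for each gene they overlapped, on either strand. Of 101 genes that lie wholly inside the exons of a gene with at least 20 RPKM on the same strand, 79 were detected, and of 35 such genes on the opposite strand, 29 were detected. Genes that share at least 50% of their exon bases are therefore marked where they are named.

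S100a9 and Ngp had the highest RPKM of the table and S100a8 lies beside S100a9 in the genome, so their promoters are shown as RefSeq gives them on GRCm38.p6, from 250 bases before to 30 bases after the annotated start, 5′ to 3′ on the strand of the gene. The window of S100a9 is chr3:90695692-90695971 on the minus strand, that of S100a8 is chr3:90668821-90669100 on the plus strand and that of Ngp is chr9:110419558-110419837 on the plus strand. Capitals mark matches, on either strand, to the letters of the TATA box (TATAAA), of C/EBP factors (TTGCNNAA) or of PU.1 (GAGGAA). The interferon response element core (TTTCNNTTT) was also searched and had no match in these 3 windows.
S100a9: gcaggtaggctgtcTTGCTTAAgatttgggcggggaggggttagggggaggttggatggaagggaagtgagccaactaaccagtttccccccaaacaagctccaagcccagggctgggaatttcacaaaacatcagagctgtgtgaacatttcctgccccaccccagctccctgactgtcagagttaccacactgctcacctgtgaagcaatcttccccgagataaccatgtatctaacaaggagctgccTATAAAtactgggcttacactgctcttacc
S100a8: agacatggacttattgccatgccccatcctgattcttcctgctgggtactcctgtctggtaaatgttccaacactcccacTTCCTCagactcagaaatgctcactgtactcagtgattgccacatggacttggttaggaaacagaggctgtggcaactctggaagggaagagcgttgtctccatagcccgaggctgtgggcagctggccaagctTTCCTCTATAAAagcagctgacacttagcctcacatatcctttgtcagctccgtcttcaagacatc
Ngp: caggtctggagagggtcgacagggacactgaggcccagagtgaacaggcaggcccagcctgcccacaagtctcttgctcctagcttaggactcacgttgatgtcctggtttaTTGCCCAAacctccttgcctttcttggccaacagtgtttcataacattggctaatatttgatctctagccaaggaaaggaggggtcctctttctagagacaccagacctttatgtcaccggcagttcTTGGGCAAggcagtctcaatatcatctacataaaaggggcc
The TATA box letters began at base 1, the annotated start of S100a9, and at base -30 of S100a8, where they adjoin a PU.1 match at -36, with another PU.1 match at -170. C/EBP matches began at -236 in S100a9 and at -138 and -11 in Ngp. Among 32851 RefSeq windows of the same length, 13.1% held TATAAA, 10.4% TTGCNNAA, 26.0% GAGGAA and 10.1% TTTCNNTTT. The gene models used for counting start 93 bases upstream of the RefSeq start for S100a8 and 61 bases upstream for Ngp, and at the same base for S100a9. A match describes letters and shows no binding.

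Expression was spread over a wide range. In the 3 samples, 17213 genes (57.9%) were detected and 12009 genes (40.4%) had a mean of at least 1 RPKM, of which 9106 were protein-coding. The latter were 54.5% of the protein-coding genes. Counts of list members at 1 RPKM or more are to be read beside these shares of all and of protein-coding genes. Those 12009 genes held 99.2 ± 0.0177% of the counts. At least 10 RPKM was reached by 4628 genes with 87.1% of the counts, at least 100 RPKM by 570 genes with 41.1%, and at least 1000 RPKM by 24 genes with 7.77 ± 0.551%. The 20 genes with the most counts held 11.1 ± 0.702% of the counts and S100a9 alone 2.27 ± 0.195%, and between 582 and 605 genes were needed to reach 50% of the counts. Protein-coding genes took 94.1 ± 0.400% of the counts, long non-coding genes 2.63%, cytosolic ribosomal protein genes 1.93% and mitochondrially encoded genes 0.404%. The plot of abundance by rank shows the steep head and the long tail of this distribution.

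**Figure D1:**
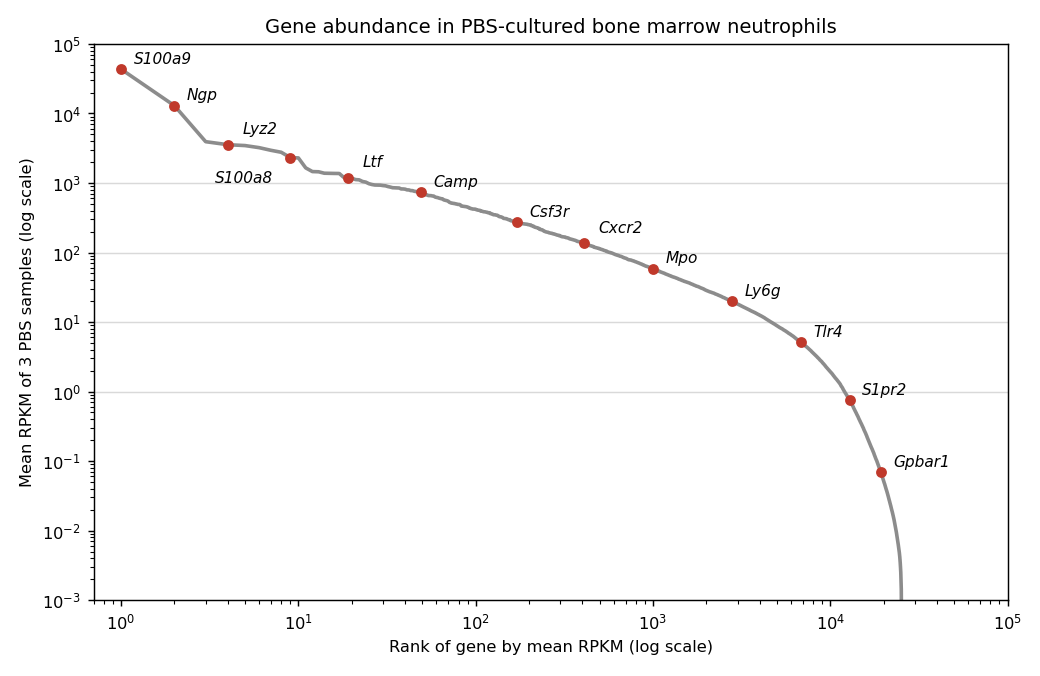
Mean RPKM of the 3 PBS samples (vertical, log scale) against the rank of the gene by that mean (horizontal, log scale), for all genes above 0, with named genes as red points. S100a9 stood at 43429.8 RPKM, Csf3r at 272, Ly6g at 19.99 and Gpbar1 at 0.0688.

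The most abundant transcript was S100a9, a calcium-binding subunit of calprotectin, with 47694, 41846 and 40749 RPKM. Ngp, the specific granule protein neutrophilic granule protein, followed with 15099.8, 11961 and 11772 RPKM. These values overlapped neither each other nor those of any gene after them. Lyz2, the lysozyme of myeloid cells, had 3709.7, 3558 and 3405 RPKM, and Chil3, a chitinase-like protein of myeloid cells, had 3037, 2686 and 2586 RPKM. S100a8, the partner subunit of S100a9, had 2483, 2268 and 2219 RPKM, so that the ratio of S100a9 to S100a8 was 18.7 ± 0.463 on RPKM and 14.4, 13.9 and 13.8 on counts. Both subunits were highest in replicate 3 while their ratio differed little between samples. The ferritin heavy chain gene Fth1 (2296), the collagenase gene Mmp8 (1650.0), the polyubiquitin gene Ubb (1460.5), Ptma (1373), the chromatin protein gene Hmgb2 (1371), the myosin light chain gene Myl6 (1209), Ltf (1195), Retnlg (1174), Actb (1120.1) and Calm2 (1029.8) made up the rest of the protein-coding genes above 1000 mean RPKM without exons shared with another gene.

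Among the 20 genes with the most counts were the non-muscle myosin heavy chain gene Myh9 at 931 ± 37.8 RPKM, the actin-binding gene Cap1 at 821 ± 103, the moesin gene Msn at 513 ± 26.6, Lsp1 at 501 ± 52.8, the centrosomal gene Nin at 262 ± 16.6 and the nuclear envelope spectrin gene Syne1 at 144 ± 6.37. Syne1, with 40491 exon bases, was among the 20 by counts but held rank 380 by RPKM. Hcls1, a leukocyte actin regulator, had 917, 910.0 and 931 RPKM, and Arhgdib, a regulator of small GTPases in blood cells, had 989.7, 945 and 872 RPKM. Apoe, the apolipoprotein E gene, stood at 565, 883 and 888 RPKM, with replicate 3 below both others. The class I antigen gene H2-D1 stood at 662, 656 and 657 RPKM and was nearly level across samples. Apobr, which encodes an apolipoprotein B receptor, stood at 874 ± 23.8 RPKM.

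Of the 40 genes with the highest mean RPKM, 25 were protein-coding, 14 shared at least 50% of their exon bases with another gene and 10 were shorter than 200 bases. Gm23419, annotated as a miRNA of 84 bases inside Actg1, was listed at 3931 RPKM and Actg1 itself at 601. Gm25745 inside Hsp90b1 was listed at 3457 against 264 for its host, and Gm28006 inside Neat1 at 3228 against 116. Gm22953, which lies opposite an exon of Serf2, was listed at 1451. Reads of host and contained gene cannot be told apart in these values, and genes with at least 50% of shared exon bases are named below only where this is stated. Counts, medians and sums of gene lists do include such genes. At 1 RPKM or more they were 3 in the transcription factor list and at most 1 in any other list. Gm10925 (1383) and Gm28661 (853) are annotated as unprocessed pseudogenes on chromosome 1 where mitochondrial sequence is copied into the genome, so their assignment is uncertain. Counts on them are not part of the share given for mitochondrially encoded genes. Among the 39 neighbouring pairs in the order of the 40, the 3 values of the pair overlapped in 32.

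Granule protein genes were expressed at higher levels than the table as a whole. Of 100 granule and release genes in the table, 87 (87.0%) had at least 1 RPKM, against 40.4% of all genes and 54.5% of protein-coding genes, and their median was 35.3 RPKM against 0.355 over all genes. Summed over its members, the specific granule list reached 27028, 22379 and 21816 RPKM, the azurophil list 5117, 5239.9 and 5004, the gelatinase list 723, 719 and 716, and the list of secretory vesicle and plasma membrane genes 639, 706 and 696. The sum of the specific list was highest in replicate 3 and that of the secretory list was lowest there. The sums of the azurophil and gelatinase lists differed little between samples. Single genes weighed heavily, with Ngp at a mean of 12944 in the specific sum of 23741 and Lyz2 at 3558 in the azurophil sum of 5120. At 1 RPKM or more, 14 of 21 specific genes were highest in replicate 3, against 35.2% of all genes. In the same replicate, 12 of 22 azurophil and 8 of 13 gelatinase genes were lowest, against 43.8% of all genes, and 5 of each list were highest.

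Specific granule genes (21 of 23 at 1 RPKM or more, median 191 RPKM) were led by Ngp, Chil3 and Mmp8. Mmp8, neutrophil collagenase, had 1779, 1612 and 1559 RPKM. Ltf, which encodes the iron-binding protein lactoferrin, had 1524, 1033 and 1029.8 RPKM, and Camp, the cathelicidin precursor, had 922, 660.3 and 616 RPKM. For both, replicate 3 was above replicates 5 and 6, which lay closer together. Hp (haptoglobin) had 900.4, 906 and 861 RPKM, and Lcn2, the siderophore-binding lipocalin, had 741, 711 and 673 RPKM. The values of Hp, Camp, Lcn2 and Cyba overlapped from one to the next in this order. Further members were the surface glycoprotein gene Cd177 at 307 ± 50.8 RPKM, Chil1 at 191 ± 15.6, the adhesion gene Ceacam1 at 106 ± 20.2, the olfactomedin gene Olfm4 at 96.0 ± 4.60 and the protease inhibitor gene Slpi at 54.9 ± 7.11. The acute phase gene Orm1 had 73.8, 48.6 and 44.6 RPKM, again highest in replicate 3. The pentraxin gene Ptx3 was at 0.114 RPKM and Bpifb1 had 0 counts in all 3 samples, where 3 counts would correspond to 0.0242 RPKM.

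Azurophil genes (22 of 24 at 1 RPKM or more, median 22.1 RPKM) were headed by Lyz2 and by lysosomal hydrolases. Ctsd, the aspartic protease cathepsin D, had 394, 546 and 512 RPKM and shares 34.4% of its exon bases with a gene model on the same strand. Cd63, a tetraspanin of granule membranes, had 244, 279.6 and 244 RPKM and Ctsz, cathepsin Z, had 131, 164 and 163 RPKM. The classical serine proteases and myeloperoxidase of primary granules were well below these. Mpo, myeloperoxidase, had 59.7, 56.3 and 60.1 RPKM, Elane (neutrophil elastase) 23.1, 29.9 and 28.04 and Ctsg (cathepsin G) 17.8, 18.6 and 18.3. Prtn3 (proteinase 3) had 6.94, 8.43 and 7.47 RPKM, Ctsc, the protease that activates these serine proteases, 4.32, 4.14 and 4.33, and Prss57 1.26, 1.09 and 1.14. The order from Mpo through Elane, Ctsg, Prtn3 and Ctsc to Prss57 held in each sample, with no overlap between neighbours. Lyz1, the paralogue lysozyme gene, had 17.3, 14.1 and 12.7 RPKM, and the ratio of Lyz2 to Lyz1 was 245 ± 27.6. The genes are close copies, so the Lyz1 value is uncertain. Bpi, the bactericidal permeability-increasing protein gene, was at 0.0101 RPKM.

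Gelatinase granule genes (13 of 15 at 1 RPKM or more, median 27.1 RPKM) were led by Mmp9, gelatinase B, with 211, 181 and 178 RPKM. Fcnb, the ficolin of myeloid precursors, had 149.6, 159 and 173 RPKM and Adam8, a membrane metalloprotease, 95.9, 108 and 104. The kinase gene Fgr had 72.6, 74.3 and 74.4 RPKM, nearly level across samples. The proton channel gene Hvcn1 (49.1 ± 4.52), the metal transporter gene Slc11a1 (39.3 ± 4.39) and the membrane protease gene Mmp25 (33.9 ± 4.83) followed. Arg1, placed in gelatinase granules in human cells, was at 0.133, 0.237 and 0.128 RPKM. Among the 13 of 18 secretory vesicle and plasma membrane genes at 1 RPKM or more, the Fc receptor gene Fcgr3 had 139, 169.7 and 160.0 RPKM and the urokinase receptor gene Plaur 132, 151 and 145. The values of Fcgr3 and Plaur overlapped. Alpl, alkaline phosphatase, and Mme, the CD10 peptidase, both marks of late human neutrophils, had 0 counts in all 3 samples, where 3 counts would correspond to 0.0217 and 0.00758 RPKM.

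**Figure D2:**
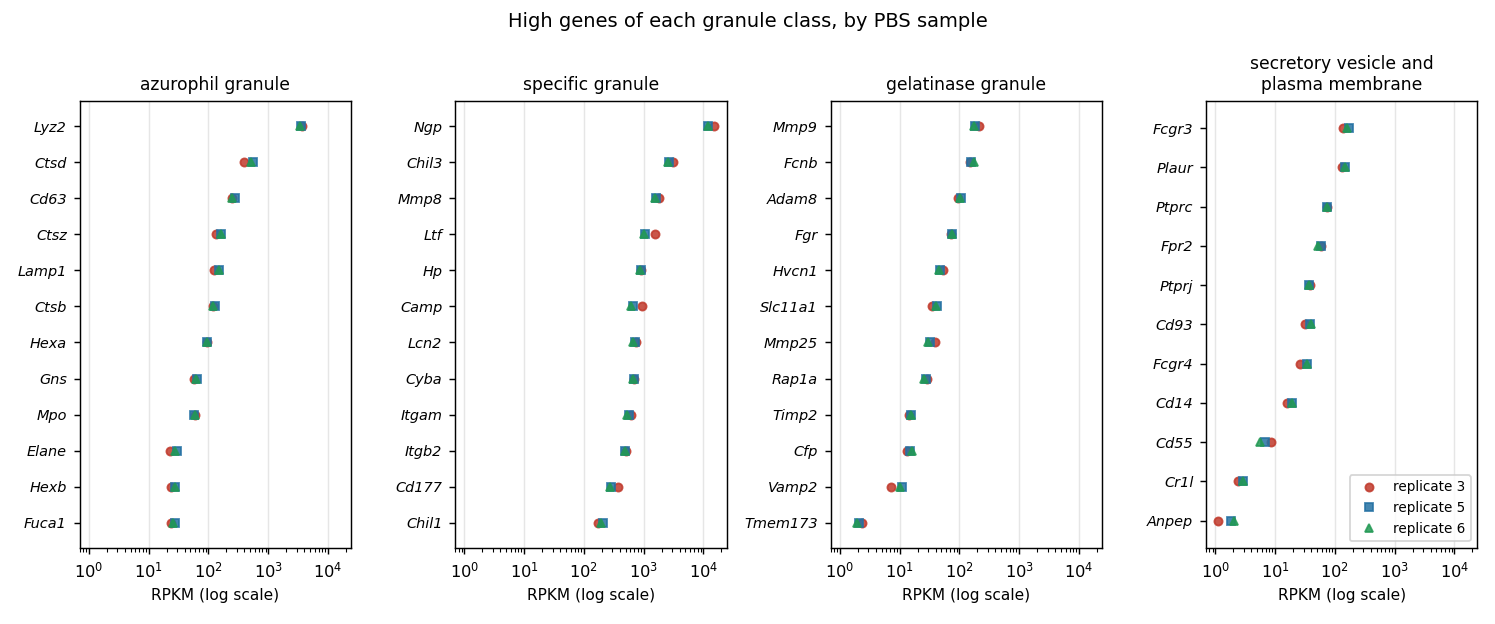
RPKM (horizontal, log scale) of up to 12 genes with high levels in each of 4 granule classes, with 1 symbol per PBS sample (red circle replicate 3, blue square replicate 5, green triangle replicate 6). Ltf (1524, 1033 and 1029.8) and Camp (922, 660.3 and 616) are the 2 drawn members of the specific granule class where replicate 3 lies farthest to the right of the others, and the highest gene of the secretory vesicle class, Fcgr3, is at 156.

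The machinery of granule release was represented by 19 of 21 genes at 1 RPKM or more. The small GTPase gene Rab27a had 151, 139 and 138 RPKM, the SNARE genes Snap23 133, 142 and 143 and Vamp8 100.1, 129.8 and 116, and the Sec1 family gene Stxbp2 83.3, 84.3 and 80.6. Rab27a and Snap23 overlapped in their values. The priming factor gene Unc13d stood at 23.5 ± 1.21 RPKM, and the paralogue Rab27b at 0.0967.

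The phagocyte NADPH oxidase, which makes superoxide in the phagosome, was represented at several levels. Of the membrane subunits, Cyba (p22phox) had 687, 689 and 652 RPKM and Cybb (gp91phox) 212, 175 and 181. Of the cytosolic subunits, Ncf1 (p47phox) had 687, 633 and 625 RPKM and Ncf4 (p40phox) 183, 197 and 188. The GTPase gene Rac2 had 83.1, 91.8 and 88.7 RPKM. The values of Cyba and Ncf1 overlapped, as did those of Cybb and Ncf4, and Rac2 lay below these 4. The non-phagocytic oxidases Nox1 (0.110), Duox1 (0.00184) and Duox2 (0.00280) were near 0. Beside calprotectin, 18 of 27 S100, stefin and related genes had at least 1 RPKM. S100a11 had 761, 1061 and 912 RPKM, Wfdc21 547, 491 and 437, S100a6 99.4, 117 and 104 and the stefin gene Cstb 69.9, 100.4 and 94.6, while S100b had 0 counts. Genes used in the release of neutrophil extracellular traps were also present (13 of 16), among them Padi4, which citrullinates histones, with 76.2, 72.0 and 72.4 RPKM, the lamin gene Lmnb1 with 104, 93.4 and 101 and the pore-forming gasdermin gene Gsdmd with 69.3, 80.3 and 85.9.

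Genes of secreted signals were expressed in part. Of the chemokines, 7 of 24 genes had at least 1 RPKM, or 29.2%, and 12 had a TPM of at least 1. The share at 1 RPKM was below the 40.4% of all genes and the 54.5% of protein-coding genes. Ccl3 had 117, 146 and 122 RPKM, Ccl6 85.2, 127 and 141, Cxcl2 19.3, 32.9 and 27.9 and Ccl9 12.2, 12.95 and 14.7. Ccl3 and Ccl6 overlapped. Replicate 3 was the lowest for all 4, and for 6 of the 7 genes at 1 RPKM or more, against 43.8% of all genes at that level. Cxcl1 was at 0.530 RPKM and Cxcl9, Cxcl11, Cx3cl1 and Ccl7 had 0 counts in all 3 samples. Of the cytokine genes, 21 of 46 had at least 1 RPKM (45.7%, against 54.5% of protein-coding genes and 40.4% of all genes). They were led by the granulin gene Grn at 121 ± 5.89, the angiogenic factor gene Vegfa at 40.8 ± 1.60 and Il16 at 34.2 ± 1.15. The inflammatory cytokine Il1b had 15.9, 25.4 and 26.9 RPKM, its antagonist Il1rn 14.9, 19.0 and 19.95 and Tnf 15.3, 14.7 and 13.4. Il10, an anti-inflammatory cytokine, had 9.79, 10.2 and 10.7 RPKM. Il6 was at 0.552 RPKM, Il12b at 0.0289, Ifng at 0.00773, and Csf2, Il33, Il11 and Areg at 0 counts.

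Of 18 lipid mediator enzymes, 12 had at least 1 RPKM (66.7%, against 54.5% of protein-coding genes and 40.4% of all genes), led by genes of the leukotriene pathway. Alox5ap, the protein that presents arachidonate to 5-lipoxygenase, had 748, 837 and 806 RPKM, Alox5 itself 62.6, 63.0 and 64.6 and the leukotriene A4 hydrolase gene Lta4h 58.8, 45.3 and 44.5. The platelet-activating factor hydrolase gene Pla2g7 had 166, 225 and 223 RPKM. Ptgs1, the constitutive cyclooxygenase, was at 21.5 ± 0.406, whereas the inducible Ptgs2 was at 0.0856, 0.0382 and 0.229 RPKM.

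Genes used as marks of immunosuppressive neutrophils, the phenotype the study examined, were mixed at baseline (17 of 24 at 1 RPKM or more). The inhibitory receptor gene Lilrb4a had 253, 314 and 321 RPKM, the checkpoint ligand gene Vsir 148, 149.5 and 141 and the haem oxygenase gene Hmox1 109.8, 123 and 121. Cd274, which encodes PD-L1, had 10.5, 16.7 and 16.1 RPKM and the mitochondrial arginase gene Arg2 17.7, 23.3 and 23.2. Replicate 3 was the lowest in Lilrb4a, Hmox1, Cd274 and Arg2. By contrast the cytosolic arginase gene Arg1 stood at 0.166 RPKM (7, 12 and 7 counts), the inducible nitric oxide synthase gene Nos2 at 0.565, 0.396 and 0.348, Ido1 at 0.101, and Ido2 had 0 counts.

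Over all lists of genes used here, 681 of 1064 (64.0%) reached 1 RPKM, and 50 further listed genes were not analysed here. The receptor repertoire covered 200 of 315 genes in the table at 1 RPKM or more (63.5%). That level was reached by 54.5% of protein-coding genes and 40.4% of all genes. The shares of chemoattractant receptors (56.7%) and of other G protein-coupled receptors (57.1%) lay near the protein-coding share. Among chemoattractant receptors (17 of 30), Cxcr2, the receptor for ELR+ CXC chemokines, had 129, 146 and 132 RPKM and stood above all others. The formyl peptide receptor gene Fpr2 had 58.4, 58.2 and 53.2 RPKM, and Cxcr4, which retains neutrophils in the marrow, 31.8, 33.9 and 32.0. Ptafr (platelet-activating factor receptor) had 29.7, 30.2 and 31.5 RPKM, Ccr1 27.0, 29.2 and 28.05 and C5ar1 (C5a receptor) 23.0, 24.3 and 25.1. The leukotriene B4 receptor gene Ltb4r1 (21.2 ± 2.93) overlapped both C5ar1 and Fpr1 (18.9 ± 0.645). Cxcr1 was at 0.394 RPKM, Ccr7 at 0.0978 and Xcr1 at 0.00436. The ratio of Fpr2 to Fpr1 was 2.996 ± 0.180.

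Opsonin receptors were dominated by the Mac-1 integrin, with Itgam (CD11b) at 619, 564 and 534 RPKM and Itgb2 (CD18) at 513, 492 and 494. Fcer1g, the signalling chain shared by activating Fc receptors, had 211, 277 and 264 RPKM and Fcgr3 139, 169.7 and 160.0. Fcgr4 (31.6 ± 4.54) and the inhibitory Fcgr2b (26.4 ± 4.09) overlapped, and the high-affinity receptor gene Fcgr1 was at 1.36 ± 0.555. The LFA-1 chain gene Itgal had 45.6, 40.9 and 38.0 RPKM, and the ratio of Itgam to Itgal was 13.8 ± 0.243. The adhesion gene Selplg had 118, 145 and 132 RPKM.

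Sensors of microbes were broadly present at moderate levels (27 of 34 at 1 RPKM or more, median 4.35 RPKM). Tlr13, an endosomal sensor of bacterial ribosomal RNA, had 30.2, 34.8 and 36.7 RPKM and the pyrin gene Mefv 28.3, 27.7 and 28.9. The DNA sensor gene Aim2 had 18.8, 28.4 and 30.8 RPKM, with replicate 3 the lowest. Tlr7, a sensor of single-stranded RNA, had 16.4, 18.7 and 20.7 RPKM, Nlrp3 14.1, 16.6 and 16.2 and Tlr2 9.56, 13.7 and 11.9. Tlr4, the lipopolysaccharide receptor, had 4.84, 5.44 and 5.04 RPKM and its co-receptor Cd14 15.6, 19.5 and 19.2. The flagellin receptor Tlr5 was at 0.755, the double-stranded RNA receptor Tlr3 at 0.0303 and Tlr11 at 0.00548. Of the C-type lectins (14 of 22), Clec4d had 94.2, 126 and 108 RPKM, Clec5a 64.4, 55.2 and 55.0 and the inhibitory receptor gene Clec12a 56.6, 53.9 and 57.0, the last pair overlapping. Mincle (Clec4e) was at 32.7 ± 0.952 and dectin-1 (Clec7a) at 8.75 ± 1.35.

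Paired activating and inhibitory receptors formed the receptor list with the largest expressed share (29 of 35 at 1 RPKM or more, median 15.9 RPKM). The adaptor DAP12 (Tyrobp) had 365, 490.3 and 451 RPKM. Inhibitory members included Lilrb4a, Cd300lf (246, 292 and 287), Pirb (230.3, 219 and 218), Cd33 (130.2, 162 and 166), Siglece (67.0 ± 1.90) and Sirpa (66.1 ± 1.75). The activating receptor genes Trem3 and Trem1 had 126 ± 8.09 and 15.9 ± 1.37 RPKM, while Trem2 was at 2.29 ± 0.736. Members of these clusters are close paralogues, and reads could be split between them.

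Growth factor and cytokine receptors (32 of 51) were led by Csf3r, the G-CSF receptor that drives granulopoiesis, with 230.3, 301 and 286 RPKM, and Csf2ra, the GM-CSF receptor chain, with 236, 219 and 208. These overlapped. The interleukin-1 decoy receptor gene Il1r2 had 86.7, 104 and 98.5 RPKM and the signalling receptor gene Il1r1 0.0986. Ifngr1 had 77.9, 94.6 and 100.2 RPKM, Ifnar2 37.5, 37.7 and 39.6 and Il17ra 43.4, 46.6 and 43.4. Both TNF receptors were present at overlapping levels, Tnfrsf1b with 34.9, 46.4 and 47.6 and Tnfrsf1a with 40.4, 43.8 and 41.3. The ratio of Csf3r to Csf1r, the macrophage growth factor receptor, was 5.39 ± 0.245. Other G protein-coupled receptors (32 of 56) included the adhesion receptor gene Adgre5 (CD97) at 62.8 ± 1.86 and Gpr141 at 52.8 ± 2.53.

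Receptors and carriers of bile acids, the agents given to the other groups of the study, were low. Bile acids act through nuclear receptors, membrane receptors and carriers that are best known from liver and gut. Of 16 such genes in the table, 5 reached 1 RPKM (31.2%, against 40.4% of all genes and 54.5% of protein-coding genes) and none reached 10. The count was 8 at 0.5 RPKM or more and 9 at a TPM of 1 or more. The exporter gene Abcc4 had 3.90, 3.29 and 3.51 RPKM, the muscarinic receptor gene Chrm3 2.32, 2.56 and 2.49, Slco3a1 1.52, 1.59 and 1.29 and Slco4a1 1.36 ± 0.123. S1pr2, a sphingosine-1-phosphate receptor that conjugated bile acids can activate, had 0.661, 0.848 and 0.736 RPKM. Gpbar1 (TGR5), the membrane bile acid receptor, had 0.0521, 0.0542 and 0.1001 RPKM, on 2, 2 and 4 counts. The vitamin D receptor gene Vdr was at 0.0366 RPKM. Nr1h4 (FXR), the nuclear bile acid receptor, and the transporter gene Slc51a had 0 counts in all 3 samples, where 3 counts would correspond to 0.0380 and 0.0547 RPKM.

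**Figure D3:**
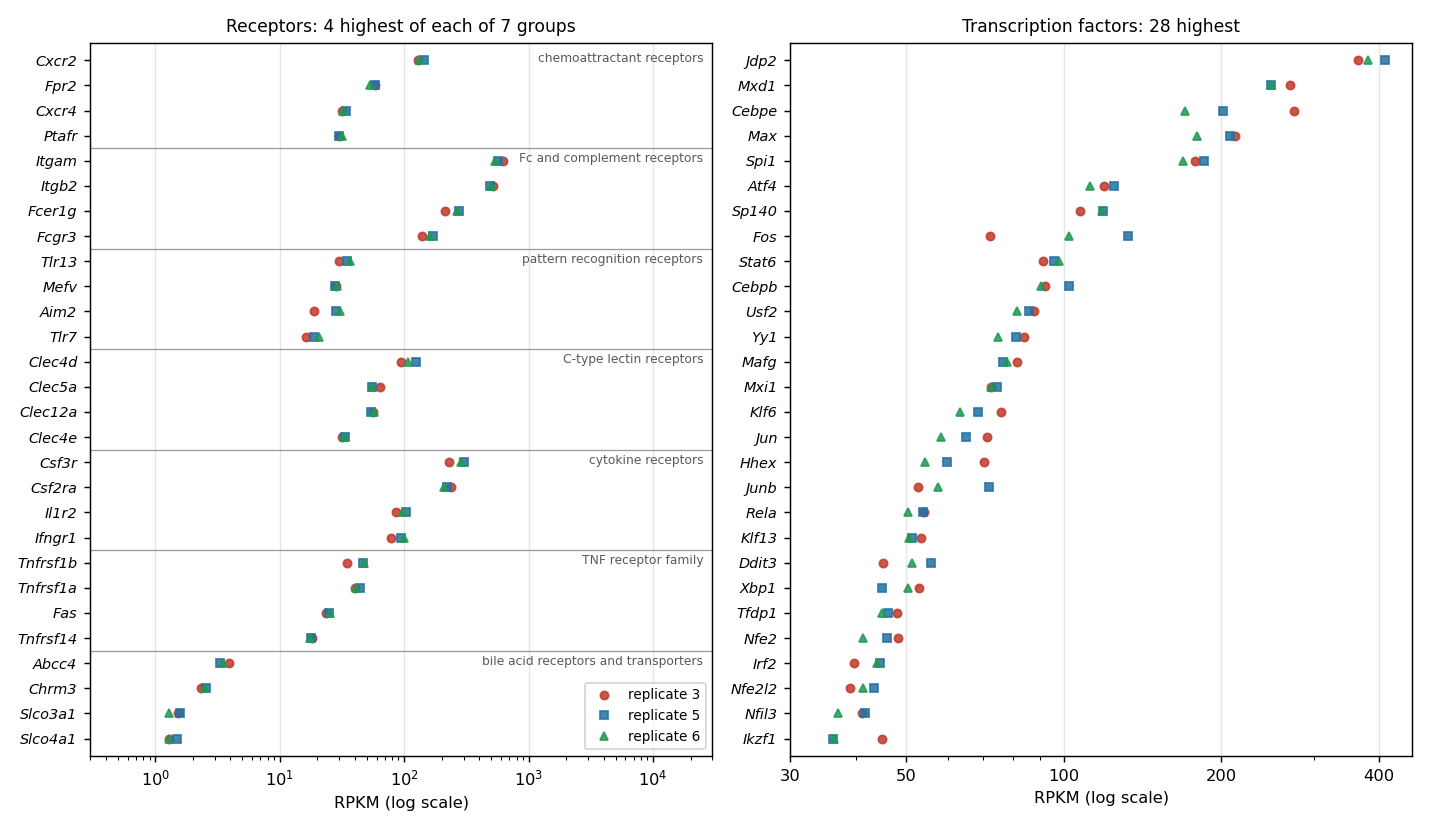
RPKM per PBS sample (log scale) of the 4 highest genes in 7 receptor groups (left, groups separated by grey lines) and of the 28 highest transcription factor genes (right); red circles are replicate 3, blue squares replicate 5 and green triangles replicate 6. The bile acid group tops out at 3.57 RPKM against 136 for Cxcr2, and Fos (72.1, 133 and 103) shows the widest gap between samples among the transcription factors drawn.

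Transcription factor genes had at least 1 RPKM in 198 of 311 cases (63.7%, against 54.5% of protein-coding genes and 40.4% of all genes), and 113 reached 10 RPKM. Jdp2, an AP-1 family repressor, was highest with 365, 411 and 381 RPKM. Mxd1, an antagonist of MYC, had 271, 249 and 249 RPKM, and Max, the binding partner of MYC and Mxd1, 212, 208 and 179.6. Cebpe, the C/EBP factor of specific granule genes, had 275, 202 and 170.3 RPKM, with replicate 3 the highest. Spi1, which encodes PU.1, had 178, 185 and 169 RPKM. In the order Mxd1, Cebpe, Max and Spi1, each gene overlapped the next, and Jdp2 overlapped none of them. Among the C/EBP genes, Cebpb had 92.0, 102 and 90.3 RPKM, Cebpd 32.0, 28.04 and 25.4 and Cebpa 25.8, 25.7 and 24.2, and the ratio of Cebpe to Cebpa was 8.51 ± 1.90. Gfi1, the repressor that favours the neutrophil over the monocyte fate, had 17.7, 15.6 and 14.5 RPKM.

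Immediate early factors were at very different levels. Fos had 72.1, 133 and 103 RPKM, with replicate 3 the lowest, Jun 71.3, 65.1 and 58.2 and Junb 52.6, 72.1 and 57.5. Fosl1 (0.498), Fosb (0.269), Egr2 (0.113) and Egr3 (0.0813), other immediate early genes, were under 1 RPKM. Atf4 and Ddit3, factors of the integrated stress response, had 119.6, 125 and 112 and 45.1, 55.7 and 51.3 RPKM. Of signalling-dependent factors, Stat6 had 91.1, 95.7 and 97.7 RPKM, Stat3 25.8, 24.8 and 25.4 and the NF-kappa-B subunit gene Rela 54.1, 53.9 and 50.4. Hif1a stood at 22.6 ± 1.12 RPKM and Irf1 at 21.8 ± 1.41. Factors of other lineages were low or at 0: the B cell factor Ebf1 at 0.0153, the T cell factors Gata3 at 0.122 and Bcl11b at 0.0253, and the erythroid factor Klf1 at 0.0913. Of the 311, 18 had 0 counts in all 3 samples, among them Hnf4a, Foxa1, Gata4, Sox17, Ppara, Twist1 and Neurod1, which act in liver, endoderm, endothelium, mesoderm or nerve. Nr1h4 was also among the 18.

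Survival genes reached 1 RPKM in 22 of 27 cases. Mcl1, the survival factor on which neutrophils depend, had 163, 168 and 173 RPKM, while Bcl2 was at 0.245 and Bik had 0 counts. The pro-apoptotic effector genes Bax and Bak1 had 41.8, 55.2 and 47.8 and 25.6, 26.0 and 23.9 RPKM, and the inhibitor gene Birc3 86.6, 106 and 103. Of the glycolysis and glycogen genes, 25 of 29 had at least 1 RPKM. Pygl, which releases glucose from glycogen, had 379, 381 and 394 RPKM, Pkm (pyruvate kinase) 311, 309 and 304 and the pentose phosphate genes Pgd and G6pdx 145 ± 2.08 and 143 ± 14.7. The glucose carrier gene Slc2a3 exceeded Slc2a1 9.08 ± 1.22-fold.

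The labelled cell type was checked against its markers. All 10 neutrophil markers in the table were detected and all had at least 10 RPKM, with a median of 289.7 RPKM. Retnlg, a resistin-like gene of mature neutrophils, had 1013, 1311 and 1198 RPKM. Ly6g, the gene of the surface antigen named in the labelled sort, had 22.2, 18.9 and 18.8 RPKM, the lowest of the 10. Precursor markers were present as well (11 of 12 at 1 RPKM or more, median 22.6 RPKM). They included, next to Cebpe and Fcnb, the proliferation genes Mki67 with 209, 172 and 179 RPKM and Top2a with 67.7, 58.0 and 61.8. Of 33 cell cycle genes 31 had at least 1 RPKM, with a median of 14.7, for example Cdk2 at 40.3 ± 6.19, Ccnb2 at 27.96 ± 2.49, Rrm2 at 17.5 ± 1.80 and Cdk1 at 14.8 ± 1.26. These values were below that of Mki67, whose level was 32.5 ± 1.31 times that of the replication licensing gene Mcm2. The female sex of the donors was matched by Xist at 19.6, 24.9 and 28.4 RPKM and by 0 counts of Ddx3y, Eif2s3y and Kdm5d.

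Markers of other marrow cells were present to very different degrees. Monocyte and macrophage markers were the most complete (16 of 17 at 1 RPKM or more, median 9.44 RPKM). Ctss had 229.9, 300.4 and 317 RPKM, Fn1 183, 139.5 and 138 and F13a1 145, 131 and 134, and the more restricted Csf1r and Ly6c2 had 43.1, 53.1 and 55.3 and 38.9, 42.3 and 39.0. The tissue macrophage genes C1qa (1.67), C1qb (2.73) and Cd163 (0.991) were low. The list summed to 726, 762 and 784 RPKM. Of 10 eosinophil markers 8 had at least 1 RPKM. Prg2, the major basic protein gene, had 211, 128 and 147 RPKM, Ear2 24.1, 15.8 and 18.1 and Epx, eosinophil peroxidase, 17.1, 8.19 and 7.72. The eosinophil surface markers Siglecf and Ccr3 had 1.63, 1.33 and 1.21 and 1.03, 0.508 and 0.296 RPKM. All 8 were highest in replicate 3, against 35.2% of all 12009 genes at 1 RPKM or more, and the list summed to 294, 173 and 194 RPKM. Their part in the differences of replicate 3 was not tested.

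Basophil and mast cell markers (7 of 12) were led by Hdc with 31.8, 29.0 and 26.7 RPKM, then Prss34 with 10.8, 6.38 and 5.35, while the mast cell proteases Cma1 and Mcpt4 had 0 counts. All 7 of those at 1 RPKM or more were highest in replicate 3, against 35.2% of all genes at that level. Of the dendritic cell list 6 of 14 reached 1 RPKM, and 10 reached 0.5 RPKM. The class II chain gene H2-Ab1 had 8.88, 11.3 and 14.8 RPKM and the invariant chain gene Cd74 9.32, 11.1 and 11.3, followed by Bst2 (5.47), Flt3 (3.71), H2-Eb1 (3.69) and Itgax (1.01). H2-Aa, the partner chain of H2-Ab1, was at 0.493, 0.684 and 0.545 RPKM, and Xcr1 and Zbtb46 were at 0.00436 and 0.0285. Of the B cell list 5 of 17 reached 1 RPKM, with Ighm at 22.8, 19.9 and 17.6 and Igkc at 14.95, 18.2 and 20.1, while Ms4a1 was at 0.0396. T cell (2 of 15), NK cell (0 of 9) and erythroid (1 of 13) lists had few members at 1 RPKM or more, and 4 erythroid genes reached 0.5 RPKM. Of the T cell members at that level, Cd247 (2.11) shares 60.3% of its exon bases with other genes. Cd3e stood at 0.0549 RPKM, Trac at 0.209, Prf1 at 0.0269, and the globin genes Hba-a1 and Hbb-bs at 0.828, 1.08 and 0.861 and 0.292, 1.06 and 1.19. Among megakaryocyte and platelet genes Thbs1 had 86.7, 70.4 and 69.8 RPKM and Pf4 1.09, 6.71 and 5.19, with replicate 3 the lowest for Pf4. Of 12 stem and progenitor genes 7 reached 1 RPKM, all 7 highest in replicate 3, against the same 35.2% of all genes. They included Erg with 30.2, 23.4 and 22.0 and Myb with 8.99, 6.24 and 6.90, while Mecom was at 0.0111. Kit and Gata2 belong both to this list and to the basophil and mast cell list, so these counts overlap. Of 15 stromal and endothelial genes 3 reached 1 RPKM, and Lepr, Pdgfra, Emcn, Bglap and Dcn had 0 counts.

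**Figure D4:**
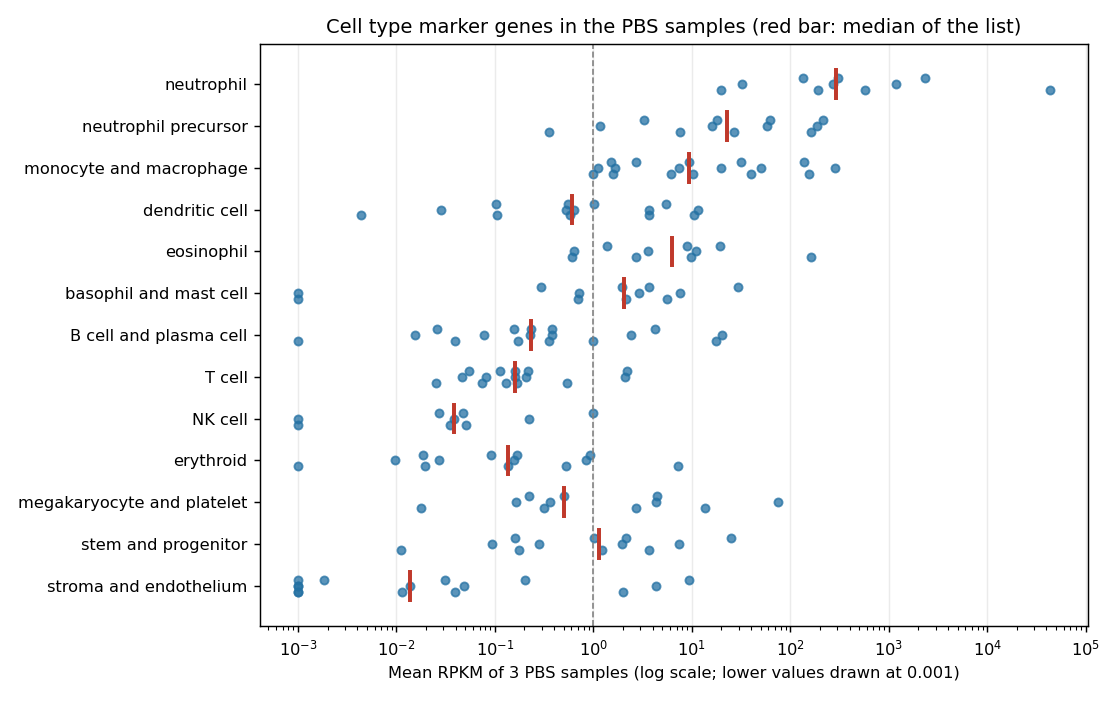
Mean RPKM of the 3 PBS samples (horizontal, log scale) for every marker gene of 13 cell types (rows); blue points are genes, the red bar is the median of the list, the dashed line is 1 RPKM, and genes under 0.001 RPKM are drawn at 0.001. The neutrophil list has its median at 289.7 RPKM, the precursor list at 22.6, the monocyte and macrophage list at 9.44 and the eosinophil list at 6.32, whereas the T cell, NK cell, erythroid and stroma lists have medians under 0.2.

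Silent genes were described by family. In all 3 samples 4538 genes (15.3%) had 0 counts, of which 1473 were protein-coding. Grouping protein-coding genes by the letters of their symbol gave 89 families of at least 20 genes. Of 249 odorant receptor genes (Olfr) 2 reached 1 RPKM and 118 had 0 counts in every sample, with Olfr1033 the highest at 1.14, 1.14 and 1.13 RPKM. None of the 21 vomeronasal receptor genes (Vmn) reached 1 RPKM. Keratin genes (Krt) reached it in 4 of 28 cases, cytochrome P450 genes (Cyp) in 9 of 50 and trypsin-like protease genes (Prss) in 3 of 28. Chosen after its values were seen, the hair keratin gene Krt83 stood out in this group with 55.7, 68.5 and 63.3 RPKM, and the leukotriene-degrading enzyme gene Cyp4f18 with 40.2, 62.9 and 62.9. At the other end, 42 of 43 Rps genes, 50 of 52 Rpl genes, 31 of 32 Vps genes and 51 of 54 Eif genes had at least 1 RPKM.

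Replicate 3 stood slightly apart from replicates 5 and 6. Across the 12009 genes at 1 RPKM or more, Pearson's r of log2(RPKM + 1) was 0.992 between replicates 5 and 6, 0.988 between 3 and 5 and 0.986 between 3 and 6, as a description across genes, which are not independent. The common biological coefficient of variation (BCV, from edgeR) was 10.7% over 15092 genes, 6.23% without replicate 3, 12.7% without replicate 5 and 12.1% without replicate 6. Per gene, edgeR gives a tagwise BCV, which is drawn toward that of other genes and is not the observed SD between the samples. Among genes with at least 10 RPKM the median tagwise BCV was 8.12%, and 99.1% of them were under 20%. These shares therefore do not describe the observed spread of single genes. AY036118, for example, had a mean of 822 RPKM with an SD of 836, but a tagwise BCV of 46.4%.

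Groups of genes leaned to one side of replicate 3. Relative to the mean of the 3 samples, the specific granule genes with at least 10 RPKM deviated in replicate 3 by 0.12 on the log2 scale and the cell cycle genes by 0.12, against -0.02 for all 4628 genes of that level. Of the 31 cell cycle genes at 1 RPKM or more, 26 were highest in replicate 3, against 35.2% of all genes at 1 RPKM or more. Cytosolic ribosomal protein genes deviated by -0.22 in replicate 3, and 66 of 81 were highest in replicate 5, against 1568 of the 4628 genes. Pattern recognition receptor genes deviated by -0.17 and the T cell suppression list by -0.16. These are deviations from a mean of 3 that includes the sample, and no test was made on them.

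**Figure D5:**
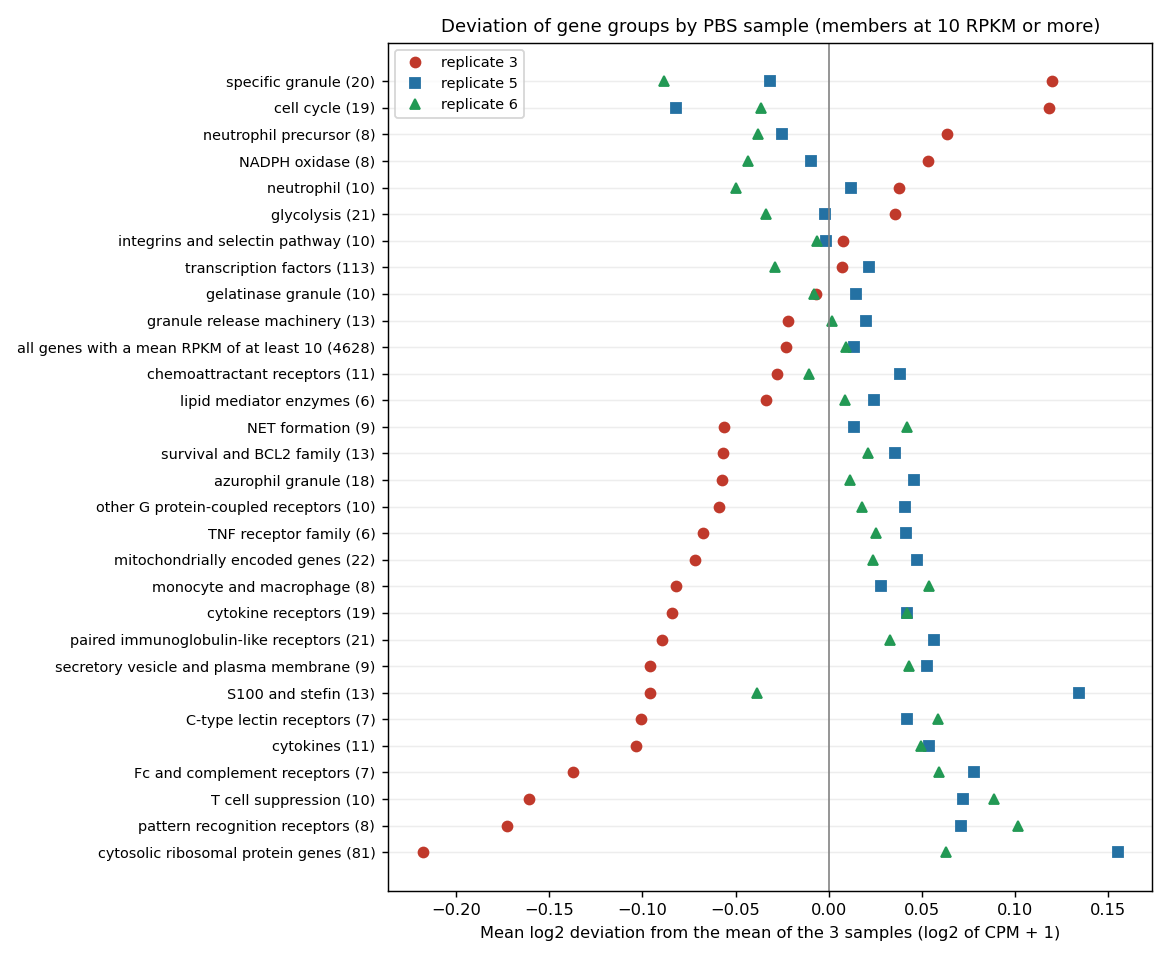
Mean log2 deviation of each PBS sample from the mean of the 3 samples (horizontal, from log2 of CPM + 1), averaged over the members of each gene group with at least 10 RPKM (number in brackets); groups with at least 5 such members are drawn. Replicate 3 (red circles) runs from -0.22 for ribosomal protein genes to 0.12 for specific granule genes, and the pair of replicates 5 and 6 is closer than either is to replicate 3 in most groups.

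The genes that varied most between the 3 samples included ribosomal and other structural RNA. Of the 15 genes with the highest tagwise BCV among those at 10 RPKM or more, AY036118, Gm42418 and Rn18s-rs5 overlie each other at a ribosomal RNA repeat. AY036118 had 238, 448 and 1779.7 RPKM, highest in replicate 6. The counts of these 3 genes summed to 0.0748, 0.1396 and 0.5497% of all counts. Reads on bases they share appear to have been counted for more than 1 of them, so the sum can overstate their share. Rn7s1 and Rn7s2, copies of the signal recognition particle RNA, had 89.2, 41.2 and 147 and 17.7, 5.93 and 24.0 RPKM, lowest in replicate 5. Among protein-coding genes with under 50% of shared exon bases, a set chosen after the values were seen, Epx (17.1, 8.19 and 7.72), Olfml2b (33.1, 17.4 and 14.3), Inhba (66.6, 36.8 and 39.4) and Rhou (57.8, 42.4 and 30.8) were highest in replicate 3. The immediate early gene Egr1 (7.38, 17.8 and 11.9), the surface gene Cd101 (12.5, 23.6 and 25.4), the linker histone gene Hist1h1c (35.7, 66.1 and 62.2) and the fatty acid-binding gene Fabp5 (26.7, 48.2 and 47.2) were lowest there.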

How the data were processed

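Total RNA of cultured neutrophils was made into stranded mRNA libraries. Per the methods and the submitters' processing notes, reads were trimmed with Trimmomatic 0.36, aligned with STAR 2.5.3a to GRCm38 (mm10) and counted on exons with featureCounts of Subread 1.5.1; the strand setting of the counting is not given in the sources used here. The authors deposited raw counts per gene and RPKM values for 12 samples; recalculating RPKM from the counts, merged exon length and library total matched within a relative difference of 3.1e-07. Of counts from 1 to 99, 69.4% were even, so mates of a pair appear to have been counted separately. Genes were matched to an annotation of the same build by position (28443 of 29737), and 26 names turned into dates were restored by position.

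The 3 PBS samples were described with no comparison between groups and no test. Members and gene lists were chosen with earlier results of these data known. Genes named were those on the lists, with the highest and those at 0 counts first, then the 40 with the highest mean RPKM, the 20 with the most counts and the 15 most variable of at least 10 RPKM; others are stated as chosen after their values were seen. Some listed genes are not reported here. A count of 0 is read against 3 counts, which covers counting error only. If mates were counted separately, 3 counts stand for fewer than 3 fragments, so this floor is too low. The same holds for the 3 counts asked for detection. The spread was estimated with edgeR 4.0.16 (R 4.3.3) after TMM scaling and filterByExpr. Tested on simulated data of 15092 genes with a BCV of 10%, the common BCV came back as 10%, and as 12.9% when 200 genes had a BCV of 60%, so a few variable genes raise it. Alternatives were other thresholds, TPM, TMM-scaled RPKM, DESeq2 1.42.0 size factors and leaving out each sample. Promoters were not compared by abundance, because only 74.2 to 81.2% of protein-coding genes per class matched the RefSeq table, which voids the comparison.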

Additional observations from a re-analysis of the deposited data

How the results depend on the processing

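No paired analysis was possible because only 1 group is described. Leaving out each sample in turn gave 17639 to 17821 genes detected, 11994 to 12059 genes at 1 RPKM or more, 10.7 to 11.3% of counts in the 20 top genes, 38 to 40 of the 40 top genes kept, 680 to 683 list members at 1 RPKM or more and 94.0 to 94.4% of counts in protein-coding genes. The common BCV was 6.23 to 12.7%, the lowest without replicate 3. The 50 top genes held 16.7% of the counts. Of the 40 genes highest by RPKM, 15 were kept when ranked on CPM, which ignores exon length, 25 among protein-coding genes only and 26 among genes with under 50% of shared exon bases, an alternative chosen after seeing the data. Protein-coding genes held 79.8% of summed TPM, where short genes weigh more. With TPM the dendritic cell list had 10 members at 1 or more, chemokines 12, bile acid genes 9 and the NK cell list 1. Among genes with under 50% of shared exon bases, the T cell list had 1 member at 1 RPKM or more. The erythroid list had 4 members at 0.5 RPKM or more and 2 at 1 RPKM or more without replicate 3. The planned comparisons of promoters and proteins by abundance were not run. With 3 samples, the SD is itself imprecise.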
